A study of Mus musculus with 12 samples.

Results

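C-type lectin pattern receptors of macrophages were followed across 2 genotypes and 2 diets. The 9 genes were chosen by name from the counted genes: Clec4a1, Clec4a2, Clec4a3, Clec4d, Clec4e, Clec4n, Clec5a, Clec7a and Clec12a. All 9 were among the 12339 genes listed in the count table, and all 9 passed the filter on low counts. The cells were macrophages drawn into the mouse peritoneum with sterile thioglycolate, an irritant broth, and washed out by lavage. The mice were wild type (WT) or meKO, which the study's title ties to protein kinase C epsilon in myeloid cells. The labels name neither the Cre driver nor the strain. At an age of 8 weeks mice of all 4 groups received the vector AAV8PCSK9, which depletes the LDL receptor of hepatocytes, so the chow groups carry it too. Mice then stayed on chow or ate a high-fat Western diet (HFD), which with the vector raises blood cholesterol, and macrophages were taken 4 weeks later. Each of the 4 groups (meKO HFD, meKO chow, WT HFD and WT chow) had 3 libraries. The labels speak of 8 mice per genotype and do not say how the 3 libraries of a group relate to them, so p-values measure the spread between these libraries.

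C-type lectin receptors are membrane proteins of myeloid cells that bind sugars, lipids or cell debris through a lectin fold. Activating members signal through an immunoreceptor tyrosine-based activation motif (ITAM), either in their own tail or in a partner chain such as the Fc receptor gamma chain (Fcer1g) or DAP12 (Tyrobp). The motif recruits the kinase Syk, and the adaptors Card9, Bcl10 and Malt1 carry the signal to NF-kappaB. Inhibitory members carry an ITIM, which recruits phosphatases. In peritoneal macrophages these receptors are best known for sensing fungi, mycobacteria and dead cells.

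All 9 genes lie on mouse chromosome 6 (GRCm38/mm10), in 3 places. Clec5a stands alone at chr6:40574894-40585821. Clec4a1 (chr6:122921848-122934619), Clec4a3 (chr6:122952515-122969875), Clec4a2 (chr6:123106428-123143999), Clec4n (chr6:123229843-123247021), Clec4d (chr6:123262111-123275265) and Clec4e (chr6:123281789-123289870) follow one another. Clec4a1 and Clec4a3 are 17.9 kb apart, and Clec4d and Clec4e 6.52 kb. Clec12a (chr6:129342691-129365303) and Clec7a (chr6:129461591-129472779) form the last pair, 96.3 kb apart. RefSeq upstream sequence (GRCm38.p6) was found for 8 of the 9 genes, all but Clec4n. Below, 3 stretches show start regions. They belong to the genes called by diet averaged over genotypes with all libraries (Clec12a and Clec4a1) and to the nearest neighbour of Clec4a1. Capitals mark matches, on either strand, to the letters GAGGAA, the core bound by the myeloid factor PU.1 (gene Spi1). The 250 bases before a start were searched in each gene.
Clec4a1, chr6:122921598-122921847, plus strand: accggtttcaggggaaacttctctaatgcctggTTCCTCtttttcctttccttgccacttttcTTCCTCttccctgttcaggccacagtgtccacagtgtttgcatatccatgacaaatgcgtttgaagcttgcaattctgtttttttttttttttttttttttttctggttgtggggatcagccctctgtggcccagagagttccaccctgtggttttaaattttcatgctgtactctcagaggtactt
Clec4a3, second listed start, chr6:122952394-122952643, plus strand: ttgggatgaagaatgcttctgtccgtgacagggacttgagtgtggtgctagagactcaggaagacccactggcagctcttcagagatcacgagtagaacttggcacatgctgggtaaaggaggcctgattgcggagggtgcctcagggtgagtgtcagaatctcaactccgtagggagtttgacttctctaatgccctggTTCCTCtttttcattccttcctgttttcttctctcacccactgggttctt
Clec12a, chr6:129350183-129350202, plus strand: GAGGAAgaaaagtgTTCCTC
Clec4a1 held 2 such matches, at positions -217 and -187 (the base before the start is -1), and Clec4a3 held 1 before its second start and 0 before its first. The longest run shared by these windows had 17 bases and contains the match in both genes: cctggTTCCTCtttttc. It begins at position -222 in Clec4a1 and at -55 before the second Clec4a3 start. The 20 bases shown for Clec12a cover positions -61 to -42 and hold a match on each strand. All 250 bases of that window lie in an annotated exon of a longer transcript of the gene, so only these 20 are shown. Of 27025 promoters of this length 23.1% held GAGGAA. The AP-1 letters TGANTCA, found in 6.87% of promoters, occurred before Clec12a (1 match) and before none of the other 7 genes. The C/EBP letters TTNNGNAA, found in 36.9%, occurred 2 times before Clec12a and not before Clec4a1. They also occurred before Clec4d (3 matches), Clec4e (2), Clec4a2 (2) and Clec5a (1). GAGGAA likewise matched before Clec4d (1), Clec4e (2), Clec5a (2) and Clec7a (1 per start), with 0 before Clec4a2. A correction for transcript length and GC content, given below, also called Clec4d, Clec4n and Clec4a3 by diet averaged over genotypes. Neither the C/EBP nor the GAGGAA letters were thus particular to the genes called without it, Clec12a and Clec4a1. In these genes no match to one pattern overlapped a match to another, and a match is a description of letters only.

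Total counts per library ran from 25844958 to 37282772. Prkce, the gene of the targeted kinase, had 2.01 to 4.44 CPM (counts per 1000000 counts of the library, scaled with TMM factors) in WT libraries and 0.95 to 1.78 in meKO libraries, so the levels did not overlap. The macrophage markers other than Lyz2 summed to between 4969 and 6231 CPM in every library. Single markers moved within that sum. Averaged over genotypes, diet called 6 of the 8 markers with Lyz2 included, 2 higher and 4 lower, against 30.2% of all genes (edgeR). In a fit corrected for transcript length and GC content it called 2 of the 8, 1 higher and 1 lower, against 23.1% of all genes. Lyz2 was at 69.3 CPM in meKO chow replicate 2 and at 16293 to 21309 CPM in the other 5 meKO libraries. In the WT libraries it was at 30482 to 53835 CPM. In WT chow replicates 1 and 2, genes with long transcripts stood higher than in the other libraries. Across genes, transcript length had a Spearman's rho with the deviation of a library from the mean of 0.64 and 0.67 there, against -0.47 to 0.15 in the other 10. These libraries take part in every WT chow comparison, and length and GC content were corrected for in an alternative fit.

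Per kilobase of transcript, Clec7a and Clec4d were the most abundant of the 9 receptors. Clec7a, known as Dectin-1, is the receptor for fungal beta-glucans, and it averaged 369 CPM per kb over the 12 libraries. Clec4d (MCL), a partner of Mincle, averaged 356 CPM per kb. Both stood above 98.4% of the genes with a known transcript length. Their ranges overlapped, and Clec7a was the higher in 8 of 12 libraries. Clec4a3, a paralogue of the DCIR receptor, followed with 123 CPM per kb, and Clec12a (MICL), an inhibitory receptor for uric acid crystals and dead cells, with 115. Clec4d lay above Clec4a3 in all 12 libraries without overlap, whereas the ranges of Clec4a3 and Clec12a overlapped. Clec4a1 had 79.2 CPM per kb and Clec4a2, the inhibitory DCIR itself, 25; these ranges lay apart. Clec4e (Mincle, the receptor for mycobacterial cord factor) had 11.6, Clec5a (MDL-1, which pairs with DAP12) 10.2 and Clec4n (Dectin-2, the receptor for fungal mannans) 10.1 CPM per kb. These last 3 overlapped one with the next. Clec4e lay below Clec4a2 in all 12 libraries. The least deeply counted value was 270 counts, for Clec4n in meKO HFD replicate 3.

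**Figure D1:**
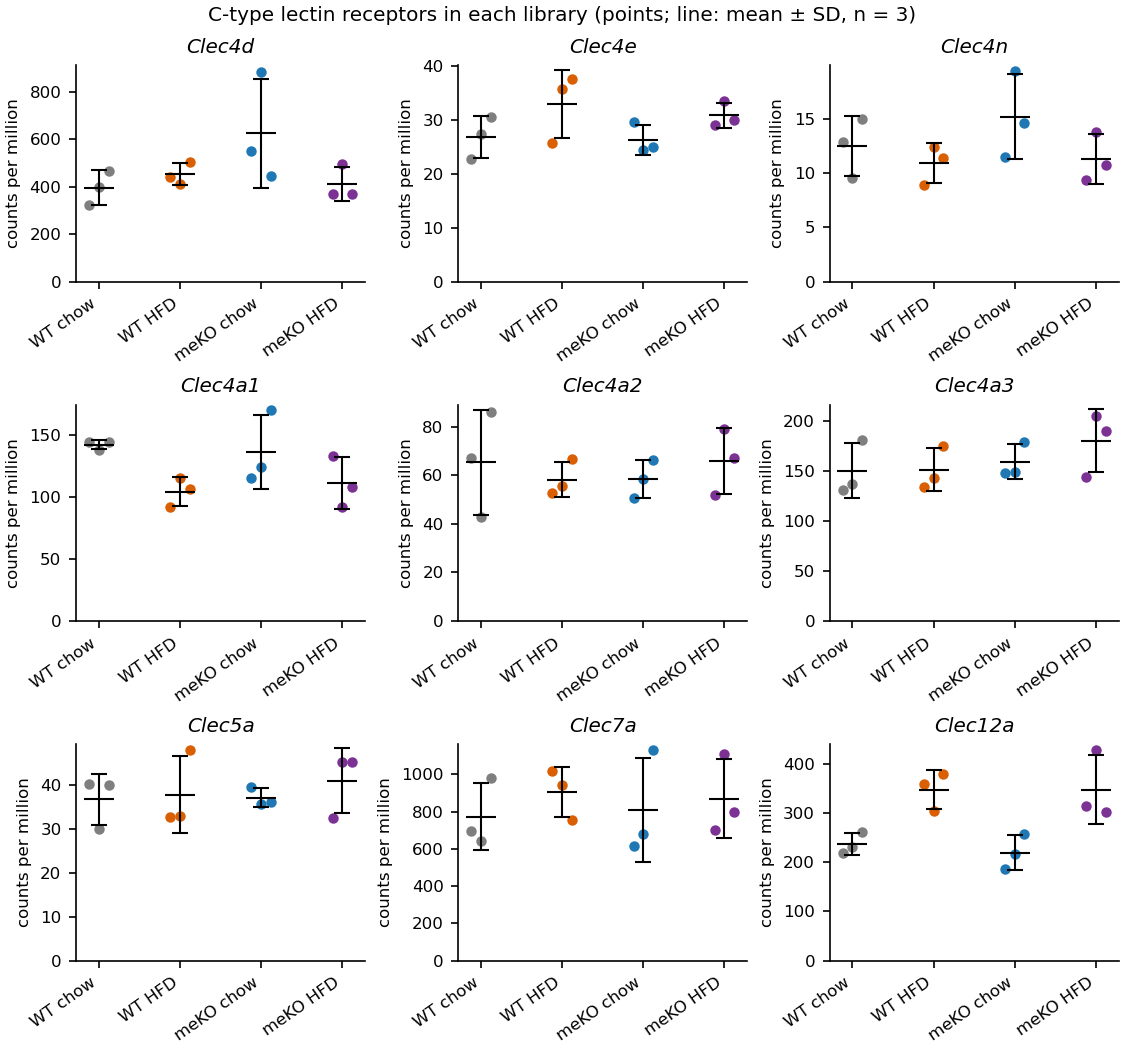
Levels of the 9 receptors in CPM (vertical axis, from 0) in each of the 4 groups, with 1 point per library and a line for the mean ± SD (n = 3). Clec12a has its 6 HFD libraries at 301 to 427 CPM, above its 6 chow libraries at 186 to 262 CPM, and Clec4d has a single meKO chow library at 883 CPM.

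The clearest difference among the 9 genes was the higher level of Clec12a on HFD. Its level in WT chow was 218, 231 and 262 CPM in replicates 1 to 3, and on HFD it was 359, 303 and 379 CPM. The means were 237 ± 22.2 and 347 ± 39.6 CPM (SD, n = 3), and every HFD library lay above every chow library. In meKO it stood at 186, 216 and 256 CPM on chow and at 313, 427 and 301 CPM on HFD. The meKO means were 219 ± 35.2 and 347 ± 70.1 CPM (SD, n = 3), again without overlap. In WT Clec12a rose 1.46-fold (log2 fold change 0.55 ± 0.16, SE; edgeR adjusted p = 0.0284). In meKO the ratio was 1.58 (0.66 ± 0.16), which did not pass after adjustment (edgeR adjusted p = 0.123, unadjusted 8.09e-04). Averaged over genotypes it rose 1.52-fold (0.61 ± 0.11; adjusted p = 0.00467). The diet effect did not differ measurably between genotypes, with an interaction of 0.11 and a 95% interval of -0.36 to 0.58 (edgeR adjusted p = 0.911).

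The averaged rise of Clec12a passed in all 20 alternative analyses (adjusted p from 1.45e-05 to 0.017). The call in WT alone passed in 17 of 21 and was lost when WT chow replicate 1 (edgeR adjusted p = 0.118), WT chow replicate 2 (0.0962), WT HFD replicate 1 (0.074) or WT HFD replicate 3 (0.116) was left out. In meKO it passed in 3 of 21 alternatives, namely DESeq2 (adjusted p = 0.0112), voom with library quality weights (0.0453) and the length and GC correction (0.0395). The direction was the same in every alternative.

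The DCIR group holds the inhibitory receptor Clec4a2 and its paralogues Clec4a1 and Clec4a3, and of these Clec4a1 was lower on HFD. Clec4a1 was at 144, 138 and 144 CPM in WT chow and on HFD at 91.6, 115 and 106 CPM. The means were 142 ± 3.41 and 104 ± 11.7 CPM (SD, n = 3), and the groups did not overlap. In meKO its levels overlapped, with 115, 124 and 170 CPM on chow and 133, 91.5 and 108 CPM on HFD. The log2 fold change was -0.45 ± 0.16 among WT libraries (edgeR adjusted p = 0.0571) and -0.29 ± 0.16 among meKO libraries (0.368), and neither passed. Averaged over genotypes Clec4a1 fell by 0.37 ± 0.11 on the log2 scale (SE; edgeR adjusted p = 0.0265). This call was lost when WT chow replicate 1 (adjusted p = 0.061), WT HFD replicate 1 (0.065), WT HFD replicate 3 (0.0577), meKO chow replicate 3 (0.0718), meKO HFD replicate 2 (0.0625) or meKO HFD replicate 3 (0.0556) was left out. It passed in the other 14 of 20 alternatives. In WT alone the fall passed in 8 of 21, among them DESeq2 (0.0407) and the 6 WT libraries fitted by themselves (edgeR adjusted p = 0.0323), and also when meKO chow replicate 3 (0.0379), meKO HFD replicate 1 (0.0383) or meKO HFD replicate 2 (0.0389) was left out. The interaction was 0.16, with a 95% interval of -0.32 to 0.64.

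Clec4a3, the neighbour of Clec4a1, had 131, 137 and 181 CPM in WT chow and 134, 143 and 175 CPM in WT HFD. In meKO it had 148, 149 and 179 CPM on chow and 144, 205 and 190 CPM on HFD. The groups overlapped in each comparison. Its averaged log2 fold change by diet was 0.09, with a 95% interval of -0.15 to 0.34, and the value turned to -0.24 ± 0.07 (edgeR adjusted p = 0.0272) with the length and GC correction. Clec4a2 varied most within WT chow, with 67, 42.9 and 85.9 CPM, against 52.8, 55.5 and 66.5 CPM in WT HFD. In meKO it lay between 50.5 and 66.2 CPM on chow and between 51.7 and 79.1 CPM on HFD. No diet effect on Clec4a2 passed, and the averaged interval ran from -0.32 to 0.33. Of its transcript, 8.14% of 50-base windows occur in other genes too (4.69% in Clec4a4), so a part of its reads may have been shared. In the other members apart from Clec4n (0.932%) no window was shared.

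Clec4d, Clec4e and Clec4n pair with the Fc receptor gamma chain, and none of them passed in any comparison with all libraries in edgeR without the length and GC correction. Clec4d had 322, 400 and 466 CPM in WT chow, 440, 413 and 505 CPM in WT HFD, then 548, 883 and 445 CPM in meKO chow and 370, 495 and 367 CPM in meKO HFD. The highest of its 12 values, 883 CPM, belonged to meKO chow replicate 2, the library with 69.3 CPM of Lyz2; the part of that library in the result is shown by leaving it out. The log2 fold change of Clec4d by genotype on chow was 0.66 ± 0.22 (SE; edgeR adjusted p = 0.144), and 0.34 (0.474) without that library. By diet in meKO it was -0.61 ± 0.22 (edgeR adjusted p = 0.252), and -0.28 (0.459) without it. In WT the diet value was 0.19 ± 0.22 (0.532), and the interaction was -0.80 ± 0.31 (unadjusted p = 0.0214, edgeR adjusted p = 0.773). Genotype on chow passed for Clec4d with library quality weights (voom, adjusted p = 0.0115) and when WT chow replicate 3 was left out (edgeR adjusted p = 0.0407). With the length and GC correction it was 0.38 ± 0.17 (0.304), and diet in meKO passed at -0.83 ± 0.17 (edgeR adjusted p = 0.0491).

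Clec4n was the least abundant of the 3, with 12.9, 9.57 and 15 CPM in WT chow and 8.87, 12.4 and 11.4 CPM in WT HFD. In meKO it had 11.5, 19.4 and 14.6 CPM on chow and 9.4, 13.8 and 10.7 CPM on HFD, and its highest value was again that of meKO chow replicate 2. The averaged diet value was -0.31 ± 0.16 on the log2 scale (SE; edgeR adjusted p = 0.139), and -0.60 ± 0.13 (0.00709) with the length and GC correction. Clec4e had 22.7, 27.5 and 30.6 CPM in WT chow, 25.7, 35.8 and 37.6 CPM in WT HFD, then 29.6, 24.4 and 25.1 CPM in meKO chow and 29.1, 33.5 and 30 CPM in meKO HFD. All these groups overlapped. The averaged value for Clec4e was 0.26 ± 0.11 (edgeR adjusted p = 0.0829), the opposite sign from Clec4n. It passed without WT chow replicate 3 (edgeR adjusted p = 0.0316), without WT HFD replicate 1 (0.0337) and with quality weights (voom, 0.0426).

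Clec7a and Clec5a passed in no comparison in edgeR. Clec7a had 695, 644 and 978 CPM in WT chow and 1017, 943 and 755 CPM in WT HFD. In meKO it had 615, 679 and 1131 CPM on chow and 703, 1111 and 796 CPM on HFD. Each group spanned much of the whole range, and the averaged diet value was 0.17 with a 95% interval of -0.19 to 0.53 (edgeR adjusted p = 0.461). By diet in WT it was 0.23 ± 0.24 (edgeR adjusted p = 0.488), and it passed in 1 of 21 alternatives, with quality weights (0.45 ± 0.17; voom, adjusted p = 0.0427). The pair Clec7a and Clec12a therefore had different outcomes in the test although they are neighbours; whether their diet effects differ was not tested. The 12 libraries had Clec5a at 29.9 to 47.8 CPM, and its averaged interval ran from -0.17 to 0.36.

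**Figure D2:**
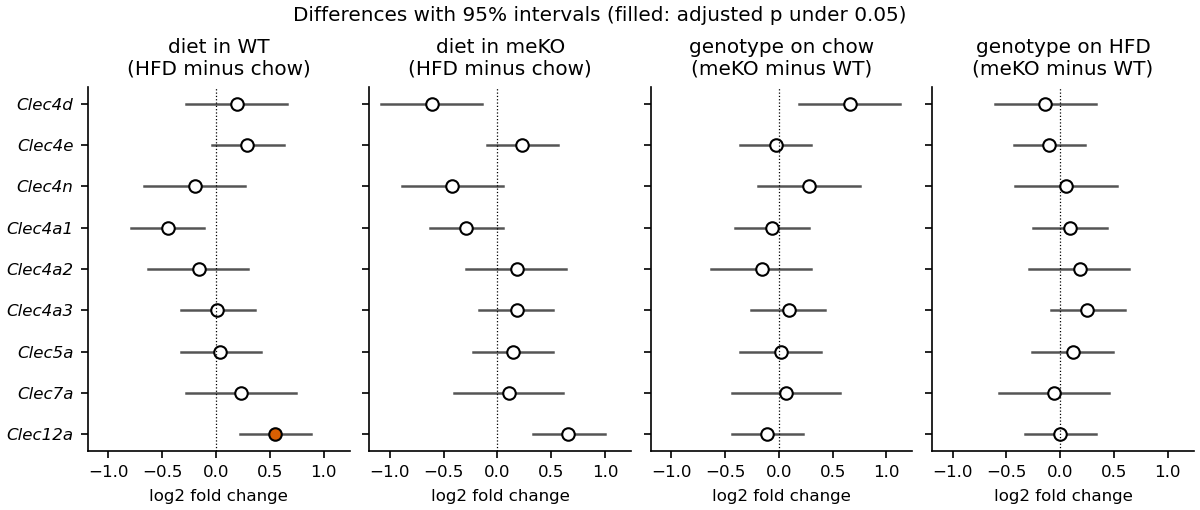
Log2 fold change (horizontal axis) of each receptor in 4 comparisons, as a point with its 95% interval, filled where the edgeR adjusted p is under 0.05. Clec12a in WT is the 1 filled point, at 0.55, and the interval of Clec12a in meKO lies to the same side, from 0.33 upward.

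Diet calls among these receptors are given here beside the shares of all genes. In WT the diet comparison called 1 of 9 members, against 21.3% of all genes (9.5% higher and 11.8% lower on HFD). In meKO it called 0 of 9 in edgeR, with 2 at an unadjusted p under 0.05 (Clec12a and Clec4d), against 0.105% of all genes. There DESeq2 called 1 member, voom 0 and voom with quality weights 1. Averaged over genotypes diet called 2 of 9, Clec12a higher and Clec4a1 lower, against 30.2% of all genes (14.9% higher and 15.3% lower). The diet groups did not overlap for 2 of 9 members in WT and 1 of 9 in meKO, while this held for 39.3% and 19.7% of all genes. The median log2 fold change of the 9 was 0.04 in WT and 0.14 in meKO, and that of all genes was -0.03 and -0.01. With all libraries in edgeR and without the length and GC correction, the shares called in WT and averaged were below those of all genes. With the correction both were above, and counts out of 9 are too small to set these receptors apart. The count in WT was 0 without WT chow replicate 1, WT chow replicate 2, WT HFD replicate 1 or WT HFD replicate 3, and 2 without meKO chow replicate 3, meKO HFD replicate 1 or meKO HFD replicate 2. The averaged count was 1 without WT chow replicate 1, WT HFD replicate 3, meKO chow replicate 3, meKO HFD replicate 2 or meKO HFD replicate 3.

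Genotype called 0 of 9 members on chow in edgeR, with 1 (Clec4d) at an unadjusted p under 0.05, against 0.081% of all genes called. The counts were 0 with DESeq2, 0 with voom and 1 with quality weights, which was also the count in edgeR without WT chow replicate 3. Over the edgeR fits leaving out 1 library, the number of all genes called on chow ranged from 2 to 2543, against 10 with all libraries. On HFD the count was 0 of 9 in all these tools, with 0 at an unadjusted p under 0.05 in edgeR, and again 0.081% of all genes were called. The 95% intervals on HFD reached from -0.61 to 0.64 over the 9 genes, so differences of that size remain possible. Averaged over diets genotype called 0 of 9 in edgeR (0 unadjusted) against 0.17% of all genes, and 0 with DESeq2, 0 with voom and 1 (Clec4a3, adjusted p = 0.0204) with quality weights. The interaction called 0 of 9 in edgeR, DESeq2 and both voom fits, with 1 (Clec4d) at an unadjusted p under 0.05 in edgeR, against 0.0162% of all genes.

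Correcting for the length and GC content of transcripts changed more calls among the receptors than any other alternative. Clec4d, Clec4n, Clec4a1 and Clec4a3 have transcripts of 1229 to 1558 bases, against a median of 2932 bases over all genes with a known length. After the correction the averaged diet comparison called 5 of 9 members, against 23.1% of all genes. Clec12a remained higher on HFD (0.50 ± 0.08, SE; edgeR adjusted p = 0.0026). Lower on HFD were Clec4a1 (-0.60 ± 0.16, adjusted p = 0.0232), Clec4n (-0.60 ± 0.13, 0.00709), Clec4d (-0.53 ± 0.12, 0.00981) and Clec4a3 (-0.24 ± 0.07, 0.0272). In WT it called 3 of 9 (13.2% of all genes), namely Clec12a (edgeR adjusted p = 0.0346), Clec4a1 (0.049) and Clec4a3 (0.0215). In meKO it called 2 of 9 (0.689% of all genes), Clec12a (0.59 ± 0.11) and Clec4d (-0.83 ± 0.17, adjusted p = 0.0491). The diet value of Clec4d in WT turned from 0.19 to -0.24.

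**Figure D3:**
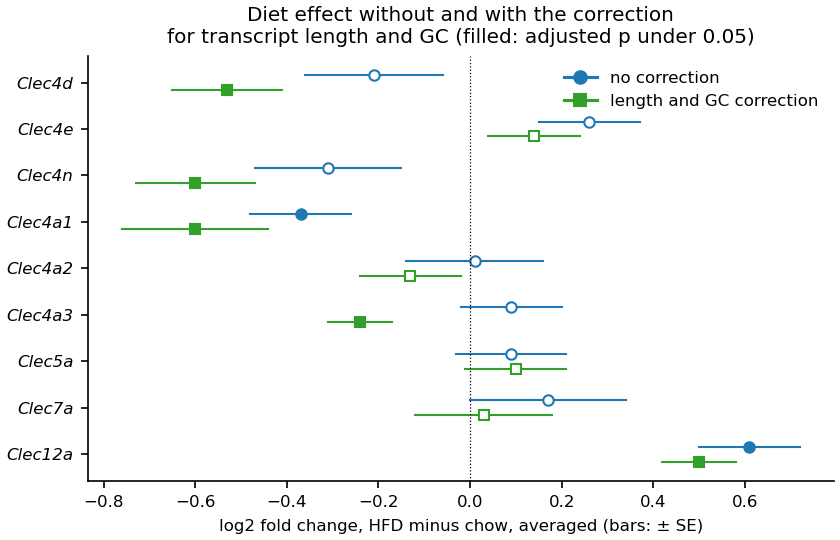
Averaged log2 fold change by diet (horizontal axis; bars show ± SE) for each receptor without the correction (circles) and with the length and GC correction (squares), filled where the edgeR adjusted p is under 0.05. Clec12a is filled in both, at 0.61 and 0.50, and 4 receptors with short transcripts are filled on the lower side after the correction.

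The receptors did not move as 1 unit over the libraries. Pearson's r of log2 CPM over the 12 libraries, given as a description since these share groups, was 0.74 between Clec4a2 and Clec4a3, 0.72 between Clec4a2 and Clec5a and 0.71 between Clec4a3 and Clec5a. After each group's mean was taken out these values were 0.80, 0.73 and 0.69, so they rest on differences between libraries of 1 group. Clec4d and Clec4n had 0.63, and Clec4d and Clec4e, which are neighbours, 0.00. Clec4a1 and Clec12a had -0.62 over all libraries and -0.04 within groups. Clec7a and Clec12a had 0.59, and 0.71 within groups.

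**Figure D4:**
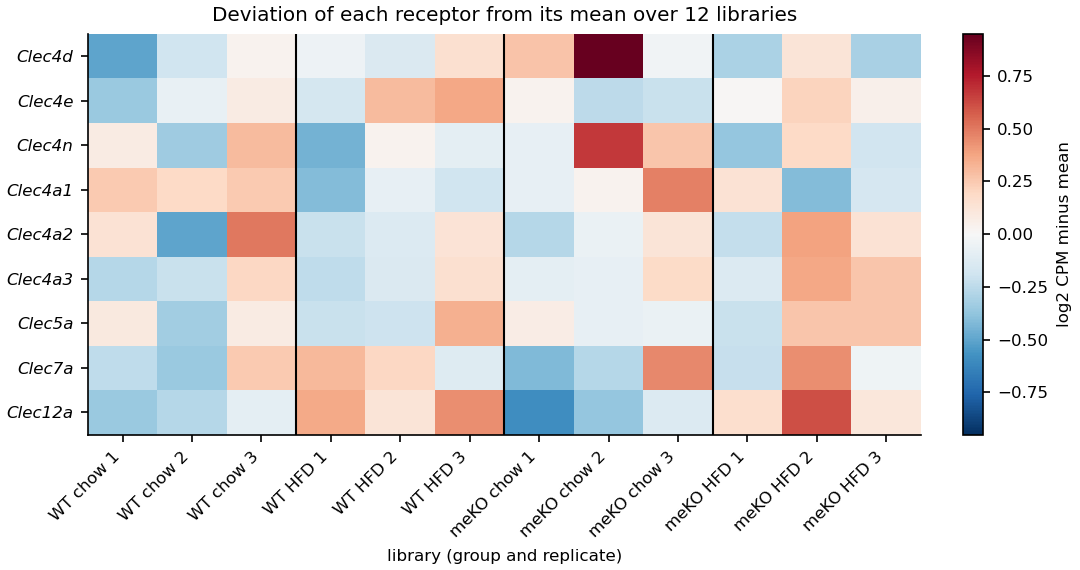
Deviation of each receptor (rows) from its own mean log2 CPM over the 12 libraries (columns, with lines between the 4 groups), in red above and blue below the mean. Clec12a is blue in the 6 chow libraries and red in the 6 HFD libraries, and Clec4d and Clec4n are both darkest red in meKO chow replicate 2.

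Over all genes whose mean was 1 CPM or more, the patterns most like that of Clec12a were Hccs (r = 0.94) and Gemin6 (0.93), and those most like Clec4a1 were Ggnbp2 and Coa5 (0.93 each). For Clec4a3 they were Rbm43 and Ik (0.94 each), for Clec4a2 Phf6 and Gmps (0.89 each), and for Clec5a P2ry10 (0.92) and Hspd1 (0.89). Clec7a was most like Sh3glb1 (0.89) and Sfxn4 (0.86), and Clec4d most like Creg1 (0.86) and Htatip2 (0.85). The nearest to Clec4e were Plpp1 (0.88) and Slamf9 (0.87), and to Clec4n Msmo1 (0.85) and Cd200r1 (0.79). All are Pearson's r over 12 libraries.

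Other C-type lectins of the same superfamily gave a comparison, with 23 of 42 on the list among the counted genes. On HFD in WT 4 rose and 6 fell, or 10 of 23 against 21.3% of all genes. With the length and GC correction 2 rose and 9 fell (11 of 23 against 13.2% of all genes, 7 shared), and with quality weights 7 rose and 7 fell. Cd72, an inhibitory lectin of B cells and macrophages, rose from 8.26, 15.8 and 13.2 CPM to 23.1, 27.7 and 32.7 CPM (1.17 ± 0.35, SE; edgeR adjusted p = 0.0354). Clec1b, the podoplanin receptor CLEC-2, rose from 0.679, 1.44 and 1.75 CPM to 3.14, 3.37 and 1.83 CPM (1.11 ± 0.37; adjusted p = 0.0472). Mgl2, a galactose-type lectin of alternatively activated macrophages and dendritic cells, fell from 20.7, 11.9 and 27.6 CPM to 10.3, 7.75 and 10.1 CPM (-1.10 ± 0.27; adjusted p = 0.0207). In each of these genes the WT groups did not overlap. Cd209f fell too (-2.22 ± 0.61; adjusted p = 0.0266), at 2 to 9 counts in WT HFD libraries. Chosen after their values were seen, the mannose receptor Mrc1 (-0.86 ± 0.16; edgeR adjusted p = 0.0106) and the galactose-type lectin Clec10a (-0.58 ± 0.14; 0.0206) fell, and the oxidised LDL receptor Olr1 rose (1.09 ± 0.21; 0.0111).

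In meKO 0 of these 23 lectins passed in edgeR without the length and GC correction, against 0.105% of all genes, with 7 at an unadjusted p under 0.05. With the correction 2 passed (0 higher and 2 lower), against 0.689% of all genes. DESeq2 called 2, voom 0 and quality weights 4. The smallest p without the correction belonged to Cd209f (-2.52 ± 0.57, SE; edgeR adjusted p = 0.11). It passed in 4 of 20 alternatives, among them the fit without meKO chow replicate 1 (0.041). With the length and GC correction it passed at -2.68 ± 0.56 (edgeR adjusted p = 0.0491). Averaged over genotypes 12 of 23 passed (4 higher and 8 lower) against 30.2% of all genes, and with the length and GC correction 14 (3 and 11) against 23.1%, of which 10 were shared. The count in WT fell to 1 without WT HFD replicate 3, 2 without WT chow replicate 1, 4 without WT HFD replicate 1, 5 without WT HFD replicate 2 and 5 without WT chow replicate 2. Cd72, Clec1b and Cd209f lost the threshold without any 1 of WT chow replicates 1 and 2 and the 3 WT HFD libraries, with adjusted p from 0.0603 to 0.184. Without WT chow replicate 3 Cd72 also missed it (edgeR adjusted p = 0.0545). Clec1b was lost too when meKO chow replicate 1, meKO chow replicate 2 or meKO HFD replicate 3 was left out, with library totals, with the WT libraries alone and after the correction (0.162). Mgl2 was lost without WT chow replicate 1 (0.0911) or any 1 WT HFD library. By genotype 0 of 23 passed in edgeR on either diet (1 and 0 unadjusted); DESeq2 called 1 and 0, voom 0 and 0, and quality weights 4 and 0. The smallest p on chow belonged to Cd93, a phagocytic receptor, at 511, 570 and 380 CPM in WT and 322, 297 and 287 CPM in meKO (-0.69 ± 0.13; edgeR adjusted p = 0.076), and it passed without WT chow replicate 3 (0.00147). With the length and GC correction it was -0.33 ± 0.09 (0.142). On HFD it belonged to Clec2i (-0.24 ± 0.13; adjusted p = 0.999).

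**Figure D5:**
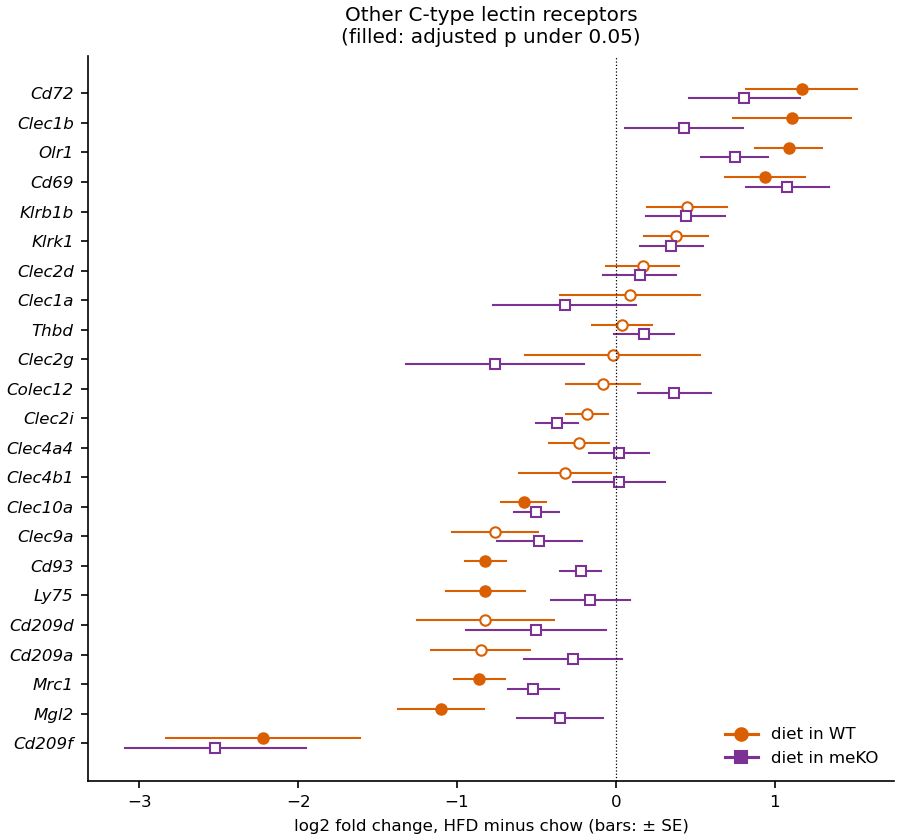
Log2 fold change by diet (horizontal axis; bars show ± SE) of the 23 other C-type lectin receptors in WT (circles) and meKO (squares), filled where the edgeR adjusted p is under 0.05. In WT 10 points are filled, 4 to the higher and 6 to the lower side, and in meKO 0.

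Of the 20 adaptors and kinases through which activating receptors signal, diet called 2 in WT, Fcer1g higher and Vav2 lower, against 21.3% of all genes. Fcer1g, the partner chain of Clec4d, Clec4e and Clec4n, was at 431, 460 and 616 CPM in WT chow and at 705, 669 and 760 CPM in WT HFD (0.50 ± 0.16, SE; edgeR adjusted p = 0.0443). In meKO it had 675, 652 and 569 CPM on chow and 592, 907 and 675 CPM on HFD, which overlapped. Vav2, a guanine nucleotide exchange factor downstream of Syk, fell from 24.9, 28.2 and 16.6 CPM to 15.5, 13.5 and 11.3 CPM (-0.79 ± 0.21; adjusted p = 0.025). Syk itself had -0.35 ± 0.17 in WT (adjusted p = 0.142) and Card9 -0.03 ± 0.10 (0.863); these 2 were chosen after their values were seen. After the length and GC correction 1 of 20 passed, against 13.2% of all genes, and 0 of the 2 calls was shared. Fcer1g then had 0.11 ± 0.07 (edgeR adjusted p = 0.298) and Vav2 -0.36 ± 0.12 (0.0656). Fcer1g and Vav2 were lost without any 1 of WT chow replicates 1 and 2 and the 3 WT HFD libraries, with adjusted p up to 0.177. Fcer1g was lost as well without meKO chow replicate 1, meKO chow replicate 2 or meKO HFD replicate 3, at 0.053 to 0.0543. The list's count was 0 without any of those 5 WT libraries and 7 without WT chow replicate 3. It was 1 without meKO HFD replicate 3, meKO chow replicate 1 or meKO chow replicate 2.

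Phosphatases and other inhibitors of the pathway gave 8 of 14 in WT, 2 higher and 6 lower, against 21.3% of all genes. The ubiquitin ligase Cblb, which marks Syk-coupled lectins and their adaptors for degradation, fell from 88.1, 93.3 and 69.1 CPM to 37.5, 41.8 and 41.9 CPM (-1.05 ± 0.17, SE; edgeR adjusted p = 0.0062), and it passed in all 21 alternatives. Inppl1 (SHIP2), an inositol phosphatase, fell by 0.78 ± 0.17 (adjusted p = 0.0155). Dok3 (0.43 ± 0.12; 0.0272) and Dok2 (0.39 ± 0.12; 0.0351), adaptors that restrain tyrosine kinase signals, rose. After the length and GC correction 3 of 14 passed, all shared, against 13.2% of all genes. The count was 1 without WT chow replicate 1, WT chow replicate 2 or WT HFD replicate 3, 2 without WT HFD replicate 1 and 4 without WT HFD replicate 2. The calls on Inppl1, Dok3 and Dok2 were each lost without WT chow replicate 1, WT chow replicate 2 or WT HFD replicate 3 (edgeR adjusted p from 0.0604 to 0.152). Inppl1 (0.0514) and Dok3 (0.0666) were lost without WT HFD replicate 1, and Dok3 (0.0609) and Dok2 (0.0827) without WT HFD replicate 2.

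Transcription factors gave 8 of 17 in WT, 2 higher and 6 lower, against 21.3% of all genes. Spi1 (PU.1) rose from 230, 234 and 264 CPM to 303, 311 and 321 CPM (0.36 ± 0.11, SE; edgeR adjusted p = 0.0318), and Cebpb from 37.3, 48.9 and 53.7 CPM to 77.2, 75.4 and 82.3 CPM (0.75 ± 0.23; adjusted p = 0.0346). Nfatc2 (-1.32 ± 0.24; 0.00853) and Nfatc1 (-0.85 ± 0.20; 0.018), the calcium-driven factors that lectin signals can activate, fell. Nfatc2 passed in all 21 alternatives. Spi1 and Cebpb were lost without any 1 of WT chow replicates 1 and 2 and the 3 WT HFD libraries (adjusted p from 0.0588 to 0.146), Spi1 also with library totals (0.0653) and Cebpb with the length and GC correction (0.0795). Nfatc1 was lost without WT chow replicate 1, WT chow replicate 2, WT HFD replicate 1 or WT HFD replicate 3 (0.0605 to 0.0922). The list's count was 1 without any of those 4 libraries, 5 without WT HFD replicate 2 and 5 with the length and GC correction (13.2% of all genes), which shared 4.

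Among output genes, the cytokines and mediators that lectin signals induce, 15 of 25 were among the counted genes. Il6, Il10, Il12b and Il23a were not among them. Diet called 1 of 15 in WT, against 21.3% of all genes: Il1rn, the interleukin-1 receptor antagonist, rose from 209, 147 and 185 CPM to 228, 335 and 453 CPM (0.91 ± 0.27, SE; edgeR adjusted p = 0.034). In meKO it had 173, 208 and 123 CPM on chow and 289, 546 and 436 CPM on HFD (1.33 ± 0.27; adjusted p = 0.0879), again without overlap, and this passed when meKO HFD replicate 1 was left out (0.0257). Averaged over genotypes it rose by 1.12 ± 0.19 (adjusted p = 0.00444). The call in WT was lost when WT chow replicate 1, 2 or 3 or WT HFD replicate 2 or 3 was left out (adjusted p from 0.0541 to 0.152) and after the correction (0.0794). The list's count was 0 when WT chow replicate 1, WT chow replicate 2 or WT HFD replicate 3 was left out, 3 without WT chow replicate 3, and 2 when meKO HFD replicate 1 or meKO chow replicate 1 was left out.

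In meKO diet called 0 genes in each of these 4 signalling lists in edgeR, with 0, 1, 2 and 2 genes at an unadjusted p under 0.05 among adaptors, inhibitors, transcription factors and outputs. DESeq2 called 0, 0, 0 and 2, voom none and quality weights 0, 0, 0 and 2. The smallest p in each list belonged to Vav3 (-0.29 ± 0.15, SE), Dok1 (-0.27 ± 0.12) and Irf8 (-0.43 ± 0.15), at edgeR adjusted p of 0.361, 0.3 and 0.252, and to Il1rn. By genotype on chow edgeR called 0 in each list, with 2, 6, 8 and 2 unadjusted, against 0.081% of all genes called. DESeq2 called 1, 4, 4 and 1, voom none and quality weights 6, 6, 9 and 6. The shares of all genes called by these other tools are not given here, so their counts cannot be read as particular to these lists. The smallest p on chow in each list belonged to Vav2 (-0.76 ± 0.21, SE; edgeR adjusted p = 0.11), Cblb (-0.89 ± 0.17; 0.0726), Egr2 (-0.48 ± 0.12; 0.0968) and Socs3 (-0.50 ± 0.15; 0.117), all lower in meKO. Each of these 4 passed without WT chow replicate 3, at 0.00285 to 0.0324, and Cblb without meKO HFD replicate 1 (0.0449). Without WT chow replicate 3, WT chow is left with replicates 1 and 2, where genes with long transcripts stood higher. Over the edgeR fits leaving out 1 library, genotype on chow called 2 to 2543 of all genes, against 10 with all libraries. Whether a shift of all genes underlies these passes was not tested. With the length and GC correction the values were -0.43 ± 0.12 for Vav2, -0.55 ± 0.13 for Cblb, -0.43 ± 0.10 for Egr2 and -0.46 ± 0.13 for Socs3, at edgeR adjusted p from 0.134 to 0.162. Cblb was at 88.1, 93.3 and 69.1 CPM in WT chow and at 41.7, 38.2 and 55 CPM in meKO chow, without overlap. On HFD edgeR called 0 by genotype in each list, with 1, 0, 2 and 3 unadjusted, and the other tools called 0 apart from 1 output gene with quality weights (Nfkbiz, -0.57 ± 0.21 in edgeR, adjusted p = 0.94). In the other lists Src (0.66 ± 0.27), Ptpn6 (0.15 ± 0.10) and Rel (-0.36 ± 0.15) had the smallest p on HFD, each at an edgeR adjusted p of 0.999.

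Markers of other cells moved with diet beside these genes, and neutrophil markers also with genotype. Their part in the receptor results was not tested. In bulk RNA fewer cells of a type and less RNA per cell cannot be told apart. Dendritic cell markers (11 of 11 counted, of which 2, Clec9a and Cd209a, are themselves lectins of the list above) summed to 142 to 159 CPM in WT chow and 83.7 to 99 CPM in WT HFD, and to 74 to 142 and 79.9 to 109 CPM in meKO. By diet in WT 3 of these 11 were called, 0 higher and 3 lower, against 21.3% of all genes (edgeR). Flt3 was among them (-0.96 ± 0.25, SE; edgeR adjusted p = 0.0226). With the length and GC correction 2 of 11 were called, against 13.2% of all genes, and 1 call was shared. B cell markers (5 of 7) summed to 106 to 163 CPM in WT chow and 51.9 to 87.2 CPM in WT HFD, and to 72.2 to 159 and 55.5 to 110 CPM in meKO. Mesothelial and fibroblast markers (8 of 8) were at 43.3 to 72.7 CPM in WT chow and 75.7 to 117 CPM in WT HFD, and at 44.1 to 79.2 and 92.1 to 119 CPM in meKO. Neutrophil markers (7 of 12, without Ly6g, Mpo, Elane, Ngp and Camp) were at 156 to 200 CPM in WT chow and 141 to 150 CPM in WT HFD, and at 165 to 192 and 172 to 188 CPM in meKO. By genotype edgeR called 1 of these 7 on chow, 1 on HFD and 3 averaged over diets, all higher in meKO. The shares of all genes were 0.081%, 0.081% and 0.17%. With the length and GC correction these counts were the same. By diet in WT 2 of these 7 were called higher and 2 lower, against 21.3% of all genes (edgeR). Among them were S100a9 (1.48 ± 0.38, SE; edgeR adjusted p = 0.0224) and Csf3r (-0.60 ± 0.14; 0.0171). With the length and GC correction 0 were called higher and 2 lower, against 13.2% of all genes. Summed monocyte markers (8 of 8) overlapped between diets, at 581 to 748 and 614 to 782 CPM in WT and 571 to 913 and 642 to 831 CPM in meKO. So did the summed markers of resident large peritoneal macrophages (8 of 8), at 138 to 387 and 205 to 313 CPM in WT and 109 to 298 and 129 to 303 CPM in meKO. These sums hide single markers that moved. Averaged over genotypes diet called 3 of 8 monocyte markers, 1 higher and 2 lower, against 30.2% of all genes. Ly6c2 rose (0.94 ± 0.23, SE, edgeR adjusted p = 0.0129) and Ccr2 fell (-0.35 ± 0.11, 0.03). Of the resident macrophage markers 1 of 8 was called, again against 30.2% of all genes. This was Gata6, which rose (0.74 ± 0.19, edgeR adjusted p = 0.0141), while the median log2 fold change of the 8 was -0.08. T and NK cell markers (7 of 8) had 10.2 to 25.5 and 17.6 to 23.6 CPM in WT and 14.6 to 15.3 and 23.9 to 27.5 CPM in meKO. Mast cell markers (6 of 6) had 206 to 247 and 197 to 227 CPM in WT and 56.5 to 346 and 195 to 286 CPM in meKO. Eosinophil markers (3 of 7) had 19.9 to 28 and 14.1 to 19 CPM in WT and 22 to 56.3 and 19.1 to 38.1 CPM in meKO.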

How the data were processed

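The authors deposited whole-number counts per gene for 12 libraries, per the file headers with Entrez identifiers and symbols. The submitters' processing notes name the build mm10 and DESeq2; the aligner, counter and strand setting are not given in the sources used here. Rows without a symbol (186) held 0.44% of counts. Columns were matched to samples by title. Replicate numbers follow accession order and pair nothing.

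The 9 members, the gene lists and the tests were chosen with earlier results of these data known. Counts were fitted with edgeR 4.0.16 (R 4.3.3; TMM factors, filterByExpr, robust quasi-likelihood F test, 4 group means over all 12 libraries) for 7 comparisons. Tests were two-sided, with Benjamini-Hochberg adjustment over all 12339 genes, and a gene was called at an adjusted p under 0.05. The code was tested on simulated data. Levels are TMM-scaled CPM. For levels per kb the longest GENCODE transcript carrying a RefSeq accession gave the length (12049 genes, 97.6%). SE is the size of a log2 fold change divided by the root of F.

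Named genes were the 9 members; in each signalling or lectin list and simple comparison up to 2 called genes that rose most and 2 that fell most, or else the gene with the smallest p; and for each member the 2 genes with the highest r of log2 CPM (prior count 2). From each cell type list up to 2 called genes could be named, and 1 or 2 were given for some lists. A result on an item withheld for evaluation is not reported here. Alternatives were DESeq2 1.42.0, limma-voom (limma 3.58.1) without and with quality weights, RLE factors, library totals, no filter, a filter of 10 counts in each library, the compared groups alone, a per-library spline on length and GC content (5 degrees of freedom each), and leaving out each library. Counts of the lectin and signalling lists under these alternatives were added after seeing the data. Shares of all genes called are given for edgeR only, so counts with DESeq2 or voom have no such share beside them. No protein sequences were used here.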

Additional observations from a re-analysis of the deposited data

Results flagged for a closer look

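Src, from the list of adaptors and kinases of lectin signalling, had diet values of opposite sign in the 2 genotypes, and neither passed. They were -0.71 ± 0.27 in WT (log2, SE; edgeR adjusted p = 0.0712) and 0.45 ± 0.27 in meKO (0.403), at 18 to 50 counts per library, for a gene singled out by these values. It was at 1.41, 1.34 and 1.12 CPM in WT chow and at 0.68, 0.62 and 1.05 CPM in WT HFD, so every HFD library lay below every chow library. In meKO it was at 0.986, 0.977 and 0.76 CPM on chow and at 1.28, 1.18 and 1.27 CPM on HFD, so every HFD library lay above. The diet groups did not overlap for 39.3% of all genes in WT and 19.7% in meKO. The interaction for Src was 1.16 ± 0.38 on the log2 scale (SE) with an unadjusted p of 0.00878, and it did not pass after adjustment (edgeR adjusted p = 0.773). With the length and GC correction it was 0.95 ± 0.40 (edgeR adjusted p = 0.707).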

How the results depend on the processing

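Of 48 single-gene values, each recomputed under up to 21 alternatives, 864 recomputed values kept direction and side of the threshold, 90 lost the threshold, 43 gained it and 2 reversed. The 2 reversals came with the length and GC correction: Clec4d by diet in WT had -0.24 against 0.19, and Clec4a3 by diet averaged over genotypes had -0.24 against 0.09. The number of receptors called also moved. By genotype it was 1 with voom quality weights on chow and 1 averaged over diets, each against 0. By diet in WT it was 2 with library totals, 2 with DESeq2, 2 with the compared groups alone, 3 with quality weights and 3 with the length and GC correction, against 1. By diet in meKO it was 1 with DESeq2, 1 with quality weights and 2 with the correction, against 0. Averaged over genotypes it was 5 with the correction and 3 with quality weights, against 2. Leaving out 1 library gave 0 to 1 for genotype on chow, 0 to 0 for genotype on HFD, 0 to 2 for diet in WT, 0 to 0 for diet in meKO, 0 to 0 for the interaction, 0 to 0 for genotype averaged and 1 to 3 for diet averaged. The number of all genes called by diet in WT ranged from 96 to 4921 over those fits, and by genotype on chow from 2 to 2543. Ranked by CPM in place of CPM per kb, Clec12a and Clec4a3 exchanged places 3 and 4, and Clec5a and Clec4e places 7 and 8. The cause of these changes was not tested. Depth limits the genes with few counts, such as Cd209f (2 to 9 counts in WT HFD libraries), Src (18 to 50) and Clec1b (24 to 98). No paired analysis was possible because the labels give no shared replicate numbers.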
